A study of Drosophila melanogaster with 2 samples.

Results

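GAGA factor (GAF), the product of Trl, is a Drosophila transcription factor with a zinc finger and a BTB domain that binds GA-rich DNA, the GAGA elements. It is known for binding the promoters of heat shock and developmental genes in S2 cells, a widely used Drosophila cell line, and for helping to keep promoter DNA free of nucleosomes. Promoters with paused RNA polymerase II are often bound by GAF. Described here are the compact GAF regions with strong summits on chromosome arms 2L, 2R, 3L and 3R. These are enriched regions shorter than 2000 bp in which at least 400 ChIP tags overlapped at the summit. Of the 4604 enriched regions in the list, 3366 lay on these 4 arms and 481 (10.4% of the list) met both limits.

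Chromatin of cross-linked S2-DRSC cells was immunoprecipitated with an antibody to GAF and sequenced (ChIP-seq). The study held 2 kinds of cells, untreated cells and cells depleted of GAF by 5 days of RNAi with 10 μg/ml GAF dsRNA. Only the list of the untreated cells was used, which the notes deposited with it call mock-RNAi, and no list of GAF-RNAi cells was analysed here. It was called on the combined ChIP replicates against a pre-immune IP, which the series description gives as a mock IP with non-specific IgG. No spread between replicates can therefore be given for any value. The ChIP held 11288498 tags, of which 6645644 were left after at most 3 tags per position and strand were kept. The control held 5252536 tags, of which 5181809 were left.

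Summit height, length and chromosome chose these regions. All values below from the same comparison of ChIP with control (height, tags, fold enrichment, p-value, false discovery rate and the heights of individual peaks) are descriptions and were not tested. Intervals of shares are 95% Wilson intervals over regions, which are not replicates, and cover counting error only. Positions refer to dm3 and count from 1.

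The 481 compact strong regions held 619964 tags, 9.33% of the filtered ChIP tags and 21.0% of the tags in all regions, within 12.1% of the bases that all regions covered. The median summit was 572 tags (quartiles 473 and 699), between a lowest of 400 and a highest of 866. Their lengths ran from 661 to 1997 bp, with a median of 1528 bp. They made up 51.2% of the 939 regions on these arms that reached 400 tags, and the other 458 were 2000 bp or wider. The limit on height fell within a continuous range. The lowest regions inside it had 400 tags each, and the 3 highest compact regions outside it had 399, 398 and 397 tags. The same held for length, with 1995, 1996 and 1997 bp just inside and 2000, 2000 and 2004 bp just outside.

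**Figure D1:**
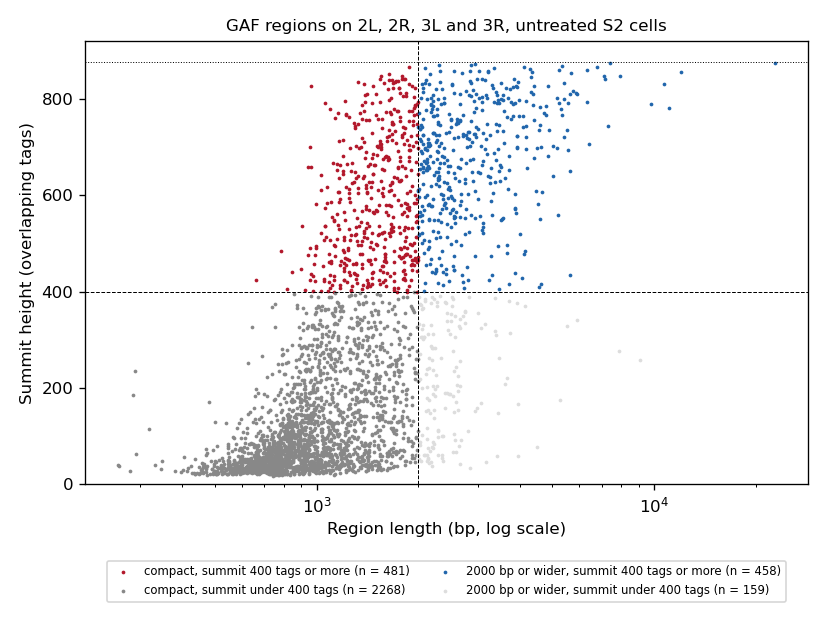
Summit height (overlapping tags) against region length (bp, log scale) for every region on 2L, 2R, 3L and 3R, with 1 point per region; dashed lines mark 400 tags and 2000 bp, and the dotted line the largest possible summit of 876 tags. The 481 compact strong regions (red) fill the block from 400 to 866 tags without a gap to the 2268 lower compact regions (grey) or the 458 broad strong regions (blue).

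The number of tags kept per position set a ceiling on the height. With 3 tags per position and strand and fragments of 146 bp, no summit could exceed 876 tags. The compact strong regions reached a median of 65.3% of that limit, and 43 of them (8.94%, 6.70 to 11.8%) reached at least 90%. Among the broad strong regions this share was 24.0% (20.3 to 28.1%). Between 800 tags and the limit there were 35 compact strong regions, against 158 between 400 and 500.

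The highest summit lay on chromosome 2R from 20654925 to 20656804, where 866 tags overlapped at position 20655793, 98.9% of the limit. The fold enrichment of this region, the height over the number of tags expected from the control, was 118.59. The next was on 2L from 12460491 to 12462127, with 852 tags and a fold enrichment of 117.58. Pairs of equal height followed at 847 tags, on 3R from 5375909 to 5377705 and on 2L from 15263983 to 15265533, and at 842 tags, on 3R from 5253520 to 5255351 and on 2L from 14489732 to 14491552. The remaining 4 of the 10 highest had 839 to 841 tags and lay on 3L from 13912510 to 13914302, on 2L from 21898688 to 21900226, on 3R from 7429609 to 7431280 and on 3L from 17556043 to 17557684. Though close in height, these 10 regions held 1803 to 3264 tags and had fold enrichments of 67.95 to 143.02.

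Fold enrichments of the compact strong regions ran from 31.97 to 143.02, with a median of 75.95. The median was 9.12 in the 2268 compact autosomal regions with summits under 400 tags, and 88.0 in the broad strong regions. The 3 lowest fold enrichments were 31.97 on 2R from 11622081 to 11623441, 33.38 on 2L from 19934041 to 19935768, and 36.25 on 2L from 5906441 to 5908361. These regions had summits of 449, 400 and 619 tags over expectations of 14.0, 12.0 and 17.1 tags. The third of them had the highest control expectation of the 481 regions and a summit above the median.

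The false discovery rate, the authors' percentage from exchanging ChIP and control, was listed as 0 for all 481 compact strong regions, where 42.6% of all regions had that value. The p-value was listed at 3100, on a scale of 10 times the -log10 value, for 477 of them, where 30.7% of all regions had that value. These values come from the contrast that chose the regions, and nothing is read from them.

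Width was measured in 2 ways, neither of them the width of the summit alone. The highest individual peak of a region spanned a median of 970 bp in the compact strong regions, against 641 bp in the lower compact regions and 980.5 bp in the broad strong regions. Dividing the tags of a region by its height and multiplying by the fragment length gives the width that a flat block of that height would need to hold the same tags. All tags of the region enter, those of its other individual peaks included. This equivalent width had a median of 296 bp in the compact strong regions (quartiles 256 and 361 bp). It was 282 bp in the lower compact regions and 487 bp in the broad strong regions. By neither measure were the compact strong regions narrower than the lower compact regions. The equivalent width changed little with height up to 700 tags, with medians of 281, 290 and 280 bp for summits from 400, 500 and 600 tags. It was 309 bp from 700 tags and 365 bp from 800 tags, where the ceiling on height lies near. The smallest equivalent width, 195 bp, belonged to the region at the start of Pvf2, described below.

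The authors split each region into individual peaks, and each peak was assigned to the region it overlapped most, by at least 1 bp. Of the 12582 individual peaks, 1322 were assigned to a compact strong region. There was 1 individual peak in 58 regions (12.1%), 2 in 141 (29.3%), 3 in 173 (36.0%) and 4 or more in 109 (22.7%). Most of the added peaks were low. The highest individual peak had a median of 567 tags and the second-highest a median of 25 tags, 4.31% of the summit. The third-highest had a median of 14 tags, and 508 of the 1322 had under 20 tags. When only individual peaks of at least 20 tags were counted, the share of regions with 2 or more fell from 87.9% to 54.1%.

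**Figure D2:**
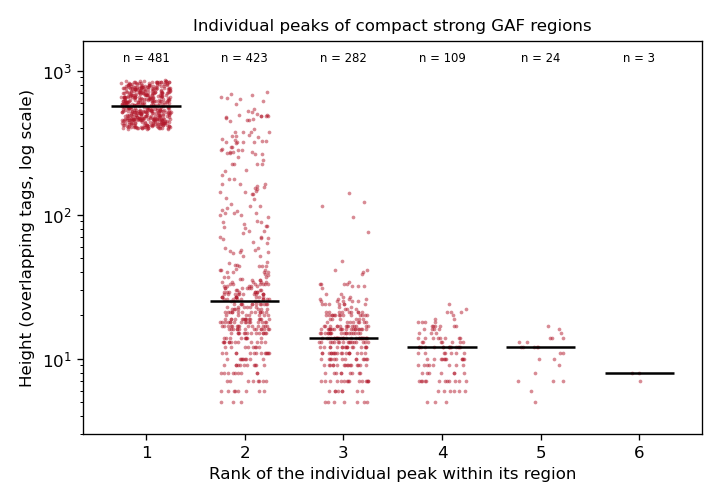
Height of every individual peak in the 481 compact strong regions (overlapping tags, log scale) by its rank within the region; points are individual peaks, bars are medians, and n is the number of regions with a peak of that rank. The medians drop from 567 tags for the highest to 25 for the second-highest and 14 for the third-highest, whereas the second-highest peaks spread from 5 to 707 tags.

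A minority of the regions held a pair of comparable summits. The second-highest individual peak reached at least 50% of the summit in 45 regions (9.36%, 7.07 to 12.3%). In the broad strong regions the share was 49.8% (45.2 to 54.3%), and in the lower compact regions 18.8% (17.2 to 20.4%), whose second-highest peaks had a median of 17 tags. The paired summits were a median of 435 bp apart (from 270 to 1020 bp). The paired regions were long, with a median of 1791 bp against 1197 bp for the 58 with 1 individual peak and 1542 bp for the other 378. Their median equivalent width was 459 bp, against 269 and 288 bp. In 24 regions both summits had at least 400 tags, and no region held 3 such summits. The highest second summits had 707 tags beside 765 on 3L from 17954071 to 17956048, 690 beside 778 on 3R from 24151450 to 24153394, and 679 beside 846 on 3R from 5375909 to 5377705. In these 3 regions the paired summits lay 445, 400 and 550 bp apart.

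At the other end stood the narrowest regions, each with 1 individual peak. They spanned 661 bp on 3R from 3919600 to 3920260, 785 bp on 2R from 6994813 to 6995597, and 818 bp on 3L from 12049280 to 12050097. Their summits had 424, 485 and 406 tags. The largest number of individual peaks was 6, in 3 regions, on 2R from 6114684 to 6116635, on 2L from 11358006 to 11359994 and on 2L from 2861465 to 2863435. In each of these the second-highest peak was low, with 26, 29 and 23 tags beside summits of 787, 725 and 556 tags. This did not hold for the regions with 5 individual peaks, of which 7 of 21 had a second-highest peak of at least 50% of the summit. With 2, 3 and 4 individual peaks, 4 of 141, 23 of 173 and 11 of 85 regions had one.

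The summit lay a median of 119 bp from the middle of its region, and within 100 bp of it in 212 regions (44.1%, 39.7 to 48.5%). The corresponding medians were 67.3 bp in the lower compact regions, which were shorter, and 410 bp in the broad strong regions.

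To place the strong summits relative to genes, transcript starts of the dm3 build were taken from the part of the gene list of the study that was held, 1689 starts on the 4 arms. These stand for part of the genes only, so that a region without one of these starts may still lie at a promoter. The full list of the study was itself restricted to non-overlapping genes whose promoters were unambiguous, so starts of other genes are absent from it. All transcripts of the genes named below have identifiers beginning with CG1, so the held part may not be an even sample. Of the 1689 starts, 238 (14.1%) lay inside an enriched region and 57 (3.37%) inside a compact strong region. At 35 of the 481 compact strong regions, 36 starts lay within 250 bp of the summit. The share of regions with such a start was 7.28%, against 3.09% of the lower compact regions and 5.02% of the broad strong regions. These differences were not tested.

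Within 250 bp, most of the strong summits sat just upstream of the start. Of the 36 summit positions, 34 were upstream (94.4%, 81.9 to 98.5%), with a median of 85.5 bp upstream and quartiles of 97.5 and 61.3 bp. In the lower compact regions 82.9% (72.4 to 89.9%) and in the broad strong regions 87.0% (67.9 to 95.5%) were upstream within 250 bp. For the compact strong regions the share was lower in wider windows, 82.6% (69.3 to 90.9%) within 500 bp and 70.7% (41 of 58) within 1000 bp. In the lower compact regions these shares were 74.1% and 72.9%, and in the broad strong regions 71.4% and 65.9%. Within 1000 bp the share of the compact strong regions was thus not above that of the lower compact regions. The starts were divided evenly between the strands, 18 on each. For 22 of the 58 starts within 1000 bp the summit lay between 50 and 100 bp upstream. For the broad strong regions that interval held 17 of 41 starts, and for the lower compact regions 20 of 166. The median position within 250 bp was 74 bp upstream in the broad strong regions and 70.5 bp upstream in the lower compact regions. All 36 starts lay inside the enriched region, which reached a median of 771 bp upstream and 609 bp downstream of them.

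**Figure D3:**
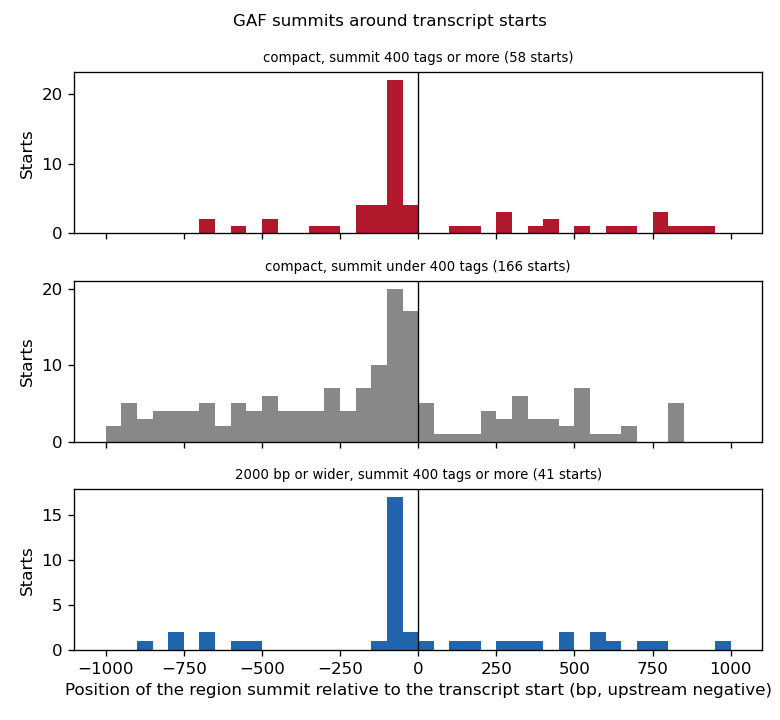
Number of transcript starts by the position of the region summit relative to the start, in bins of 50 bp (upstream negative, direction of transcription to the right), for compact strong regions, lower compact regions and broad strong regions within 1000 bp. For the compact strong regions the bin from 100 to 50 bp upstream holds 22 of 58 starts, and for the lower compact regions 20 of 166.

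The regions with a start within 250 bp had a median summit of 636 tags and a median length of 1424 bp. For the other 446 compact strong regions these medians were 568.5 tags and 1538 bp, and an unknown part of those lies at starts that were not held. The 30 starts with the highest summits are named below, grouped by what their genes are known to do only to give them an order.

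Among genes of cell signalling, the highest summit was at fng, which encodes the glycosyltransferase Fringe that modifies the Notch receptor. There 827 tags overlapped 99 bp upstream of the start, within a region on 3L (20941991 to 20943457) that was 119.37-fold enriched, and another individual peak of the region had 486 tags. At wit, which encodes a BMP type II receptor needed for synapse growth at the neuromuscular junction, 812 tags overlapped 88 bp upstream of the start, on 3L from 4071058 to 4072892. In contrast to fng, the second-highest individual peak there had 25 tags. Galphaf, which encodes a G protein alpha subunit, had 755 tags 97 bp upstream of its start.

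Genes of secreted ligands and of regulators of signalling were also among them. At Pvf2, which encodes a ligand related to PDGF and VEGF, 700 tags overlapped 66 bp upstream of the start within a region of only 958 bp on 2L from 7084174 to 7085131. At egr, which encodes Eiger, the TNF of Drosophila, the summit had 655 tags 33 bp upstream of the start. At Ilp8, which encodes an insulin-like peptide that delays metamorphosis when growth is disturbed, a lone individual peak had its summit of 507 tags 107 bp upstream of the start. The start of nkd, which encodes the Wingless antagonist Naked cuticle, lay 59 bp downstream of a summit of 581 tags. At dbr, which encodes Debra, a regulator of the degradation of Cubitus interruptus in Hedgehog signalling, 2 strong individual peaks lay in the region, with a summit of 656 tags 87 bp upstream of the start and a further peak of 542 tags.

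Genes of cell adhesion, the cytoskeleton and cell fusion followed. At caps, which encodes the leucine-rich repeat cell surface protein Capricious, the summit of 804 tags lay 92 bp upstream of the start, and the region, from 13220453 to 13222392 on 3L, was 121.98-fold enriched and held another individual peak of 372 tags. The start of blow, which is needed for myoblast fusion, lay 84 bp downstream of a summit of 568 tags. The summit at kst, which encodes the beta-heavy spectrin, had 510 tags and lay 75 bp upstream. At spir, which encodes the actin nucleator Spire, 488 tags overlapped 106 bp upstream of the start.

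Both transcription factors among the 30 starts had moderate summits for these regions. The summit at mirr, a homeodomain factor of the Iroquois complex that patterns the eye and other tissues, had 522 tags and lay 178 bp upstream of the start, as the lone individual peak of its region. The transcript CG13826-RA, whose identifier Release 6 lists under cnc, a bZIP factor of the oxidative stress response and of head development, started 97 bp downstream of a summit of 608 tags.

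Genes of metabolism and transport had summits over much of the range. At alpha-Est10, a carboxylesterase of the alpha-esterase cluster, 786 tags overlapped 74 bp upstream of the start. At JhI-21, which encodes an amino acid transporter, the summit had 739 tags 90 bp upstream. The cytochrome P450 genes Cyp6a17 and Cyp6d4 had summits of 644 and 485 tags, 68 and 56 bp upstream. They differed in form, since the second-highest individual peak had 24 tags at Cyp6a17 and 456 tags at Cyp6d4. The exceptions in position were Naglu, a lysosomal enzyme that degrades heparan sulfate, and Pld, phospholipase D. Their summits of 761 and 636 tags lay 135 and 192 bp downstream of the listed start, the only summits of the 36 on that side.

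The remaining named genes were of other or unknown roles. The summit at dnr1, an inhibitor of the immune deficiency pathway, had 759 tags 82 bp upstream of the start. At red, a gene of eye and Malpighian tubule pigmentation, 744 tags overlapped 6 bp upstream, the closest of the 30. At geko, which affects olfactory behaviour, the summit of 566 tags lay 94 bp upstream. CG13893, CG13252, CG10527, CG11367 and CG10660 had summits of 796, 755, 702, 615 and 601 tags, at distances of 62, 87, 79, 54 and 188 bp upstream. For CG13506 and Rift the heights were 495 and 641 tags, 121 and 171 bp upstream. The other 6 starts belonged to summits of 417 to 483 tags, all upstream by 3 to 162 bp. Of these, the starts of CG12744 and peo, which point away from each other, shared 1 summit of 483 tags.

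**Figure D4:**
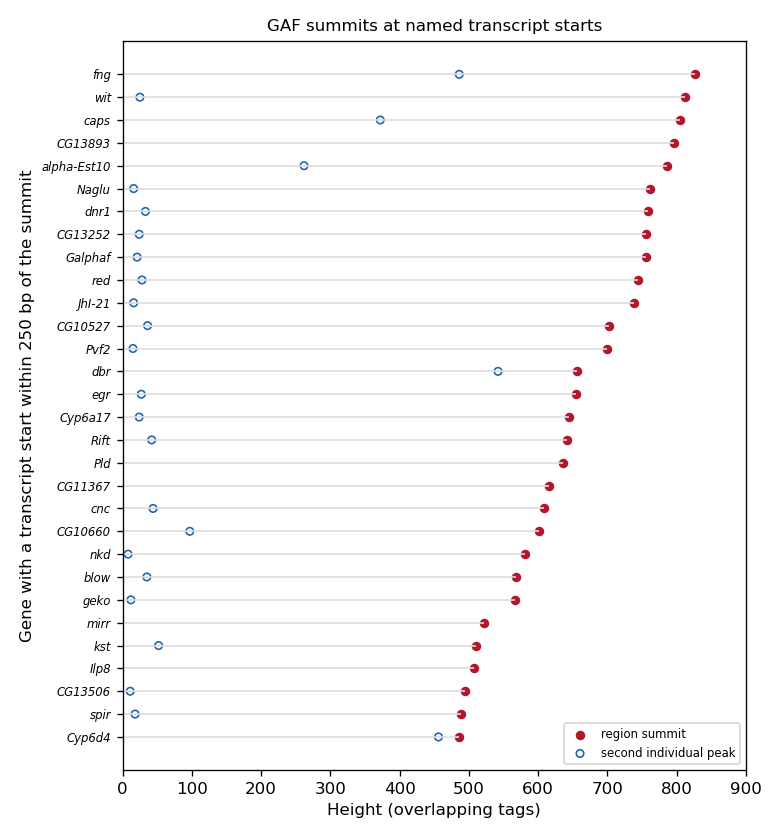
Height of the region summit (filled) and of the second-highest individual peak (open, where there is one) in overlapping tags at the 30 named transcript starts, in order of summit height. Summits run from 827 tags at fng to 485 at Cyp6d4, and the second-highest peak stays under 100 tags except at fng, caps, alpha-Est10, dbr and Cyp6d4.

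Developmental genes were looked up from 2 lists. Of 25 developmental transcription factors, all with a held start, the start of 1 (mirr) lay in a compact strong region, those of 10 lay in other enriched regions and those of 14 in none. The genes named next that lay outside compact strong regions were picked after their values were seen. The 10 included emc, an inhibitor of bHLH factors, and tsh, a homeotic gene of the trunk. Their regions were broad, 3094 and 2718 bp, with summits of 794 and 766 tags, and those summits were 64 and 47 bp upstream of the start. The starts of the Hox genes Ubx, Antp and Abd-B that were held lay in no region, and that of abd-A lay in a compact region whose summit had 126 tags. Of 11 signalling and polarity genes, 9 had a held start, and those of 2 lay in compact strong regions. At rho, which encodes the protease Rhomboid that releases EGF receptor ligands, a summit of 479 tags lay 3 bp upstream of the start. At wts, which encodes the Hippo pathway kinase Warts, the summit of 454 tags was 695 bp downstream of the start, within the region on 3R from 26631188 to 26632758. The starts of fj, vn, brat and kek1 lay in other regions, and those of Egfr, smo and tkv in none. The share of held starts in compact strong regions was 3.37%, and in any enriched region 14.1%, as given above. The lists were too short to be read against either share.

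Compact strong regions were present on all 4 arms at similar frequency. There were 103 on 2L, 120 on 2R, 137 on 3L and 121 on 3R, which were 14.3%, 15.1%, 15.1% and 12.8% of the regions of each arm. Per megabase between the first and the last region of the arm these were 4.49, 5.70, 5.63 and 4.34. Median summits were 565, 561, 578 and 585 tags. Strong regions on 3L were more often compact, 61.2% of 224 (54.6 to 67.3%), than those on 3R, 44.3% of 273 (38.5 to 50.3%). The shares on 2L and 2R were 47.7% and 53.1%.

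Fold enrichment differed by arm, as did the expectation from the control. Its median was 85.7 on 3L, against 71.6 on 2L, 72.7 on 2R and 73.3 on 3R. The expected number of tags from the control had a median of 6.48 on 3L and 8.05, 7.68 and 7.96 on the others. It cannot fall below the genome-wide level of 5.88 tags, the value computed here from the depth after filtering, the fragments of 146 bp and a genome of 165000000 bp. The expectation was at this level for 81 of the 481 regions (16.8%, 13.8 to 20.4%). On 3L it was 33.6% (26.2 to 41.8%), and on 2L, 2R and 3R 9.71%, 9.17% and 11.6%. The lower compact regions had the same order, with 35.5% on 3L and 13.7%, 10.7% and 15.5% on the others. The expectation was computed as height over fold enrichment. At nearly the same summit heights, the larger fold enrichment and the lower expectation on 3L are therefore the same observation. Its cause was not tested.

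**Figure D5:**
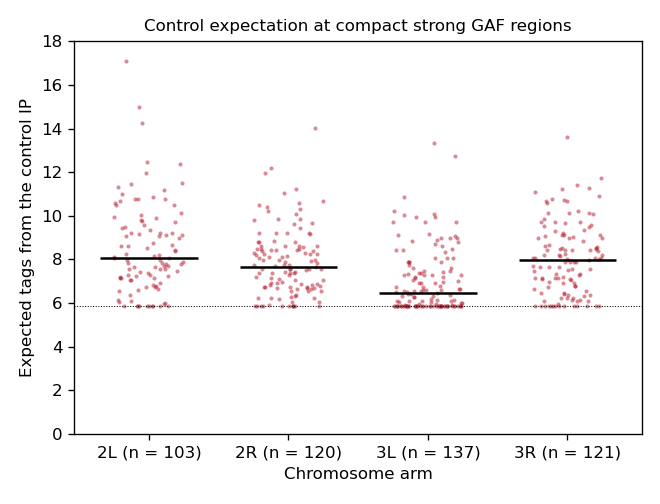
Number of tags expected from the control IP (height over fold enrichment) for each compact strong region by chromosome arm; points are regions, bars are medians, and the dotted line is the genome-wide level of 5.88 tags. Regions on 3L (n = 137) lie lowest, with a median of 6.48 against 7.68 to 8.05 on the other arms.

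The nearest other region was somewhat farther away than over the whole list, which was not tested. The share with another strong region within 5000 bp was close to that over the whole list. The nearest other enriched region was a median of 3946 bp away, edge to edge, within 1000 bp for 122 regions (25.4%, 21.7 to 29.4%) and over 10000 bp away for 152 (31.6%, 27.6 to 35.9%). Over all regions the median was 2996 bp and these shares were 30.7% and 28.1%. For the lower compact regions the median was 3145 bp, and for the broad strong regions 2223 bp. The nearest neighbour was a lower compact region for 327 of the 481 (68.0%), another compact strong region for 66 (13.7%) and a broad strong region for 65 (13.5%). The nearest region with a summit of at least 400 tags was a median of 24187 bp away, and for 110 (22.9%, 19.3 to 26.8%) it was within 5000 bp, against 23.2% of all regions. The closest 2 compact strong regions were on 3L, from 18054435 to 18055790 and from 18055833 to 18057057, with summits of 700 and 768 tags and a gap of 42 bp. The next pair was on 3R, from 25078587 to 25080498 and from 25080553 to 25081987, with summits of 457 and 537 tags and a gap of 54 bp. Merged, either pair would have exceeded the limit on length.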

How the data were processed

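The peak lists of GAF ChIP-seq from untreated S2 cells were used. The processing notes of the submitters name BWA and the dm3 build. The authors combined the unique reads of both replicates, called regions with MACS 1.4.0beta (p-value cutoff 0.0001) against the control IP, and split them with the Subpeaks tool. The tag counts of regions and the heights of summits, a signal in overlapping tags, were deposited without normalization. As a ratio, the deposited fold enrichment sets summit height over what the control predicts locally. The deposited score of each region is 10 times the -log10 p-value, and the deposited FDR is in percent.

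Regions were chosen by height, length and chromosome, and each individual peak went to the region it overlapped most, by 1 bp or more. Transcript starts were those of the part of the study's gene list that was held, whose counting from 0 or 1 is not given (a difference of 1 bp at most), with no measured value of that list used. Symbols came from RefSeq Release 6 by locus tag or synonym, and 1687 of 1689 starts matched. Shares have 95% Wilson intervals, and nothing was tested. Members, gene lists and alternatives were chosen with earlier results of these data known.

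Regions named are the 10 highest, and the 3 narrowest, lowest in fold enrichment, highest in the second individual peak and largest in individual peaks, with the 3 on each side of the limit on height and the closest pairs, which were added after their values were seen. Genes named are the first 30 starts within 250 bp of a summit by height, and list genes. GAGA elements were not analysed here, because no dm3 sequence was used. Python 3.11.15, numpy 2.4.6, pandas 2.3.3, scipy 1.17.1 and matplotlib 3.10.9 were used, and the assignment of peaks and starts was tested on simulated data.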

Additional observations from a re-analysis of the deposited data

How the results depend on the processing

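Over 11 results, 58 alternatives were computed, of which 46 left the value within its interval (counts within 1.5 times) and 12 moved it. The position of summits relative to starts and the share upstream, with their 10 alternatives, were added after seeing the data. Shortening the limit on length to 1500 bp left 230 regions, 22 of them with a start within 250 bp, and lowered the median fold enrichment to 72.6, the share with 2 or more individual peaks to 78.7%, the share with a second-highest peak of at least 50% of the summit to 2.61% and the distance of the summit from the middle to 73.5 bp. Limits on height of 300 and 500 tags gave median fold enrichments of 67.9 and 87.7. With individual peaks of at least 20 tags only, 54.1% of regions held 2 or more, and the share of paired summits was 16.4% with a limit of 25% of the summit. Counting only other regions with an FDR at or below 1% put the nearest region at 8266 bp, since fewer regions enter. The share of summits upstream of the start was 100% within 100 bp and 82.6% within 500 bp, against 94.4% within 250 bp. Applied to the compact strong regions, a stricter p-value and an FDR at or below 1% left out none of the 481 regions. The alternatives with these 2 limits could therefore move no value, and they are counted among the 46.

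No paired analysis was possible because the replicates had been combined before calling, and no replicate was left out for the same reason. The share of promoters with GAGAG and its alternatives were not run, because no promoter sequence was used. The ceiling of 876 tags, set by the tags kept per position, limits the order of the highest summits. It also enters ratios that hold the height, such as fold enrichment and the second-highest peak as a share of the summit. Depth was not varied.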

Other observations

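A further 21 of the held starts lay inside compact strong regions but over 250 bp from the summit, and these were looked at only after their values were seen. At some of them a lower individual peak of the region sat near the start. At LanA, which encodes the alpha chain of laminin, the summit of 578 tags lay 677 bp upstream, and an individual peak of 147 tags lay 76 bp upstream of the start. At ttv, which encodes an enzyme of heparan sulfate synthesis, the summit of 405 tags lay 449 bp downstream, and a peak of 115 tags lay 47 bp upstream. At CG13895 a peak of 396 tags lay 74 bp upstream of the start, beside a summit of 438 tags 267 bp downstream. A peak of 13 tags lay 72 bp upstream at BtbVII. Such lower peaks also lay downstream, 17 bp at Prx6c (86 tags) and 86 bp at wts (24 tags). They lay 72 bp downstream at Mrm2 (16 tags) and 5 bp downstream at sti (24 tags). At PAN3 a peak of 22 tags lay at the start itself.

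At others the summit was itself the nearest individual peak, and at most of these it lay downstream of the start. At gpp, which encodes the histone methyltransferase Grappa (Dot1), it had 774 tags and lay 848 bp downstream. At Atg1, the kinase that starts autophagy, it had 663 tags and lay 545 bp downstream, and at Spred it had 404 tags and lay 637 bp downstream. The summit was also the nearest peak at bchs and Tsp42Ef, 279 bp downstream at each. At Exn and Liprin-gamma it was the nearest too, but 496 and 297 bp upstream. In contrast, at stg, which encodes the mitotic phosphatase String (Cdc25), the start lay in the second region of the close pair on 3R described above, 385 bp from the summit of 537 tags, which was downstream, and the nearest individual peak had 16 tags. No explanation of these positions was tested.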
